A study of Mus musculus with 4 samples.

Results

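A set of 10 genes of acute inflammation was followed through the leukocytes of mouse fibrosarcomas. They are Il1a, Il1b, Il1rn, Tnf, Tnfaip3, Il6, Cxcl1, Cxcl2, Cxcl3 and Ptgs2, chosen by symbol and all present among the 31053 features of the deposited tables. Droplet-based single-cell RNA of sorted live CD45+ cells, the marker of leukocytes, was compared between DKO tumours, whose tumour cells lack Raldh1 and Raldh3, and Cas9 control tumours. Raldh1 and Raldh3 are the enzymes, encoded by Aldh1a1 and Aldh1a3, that make retinoic acid from retinaldehyde. Both groups were untreated and taken on day 11 after implantation, and the knockout is carried by the implanted tumour cells and not by the leukocytes measured here. Each group had 2 libraries, numbered 1 and 2, and cells of 2 tumours went into every library, so p-values measure the spread between pools and not between single tumours.

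IL-1α and IL-1β (Il1a, Il1b) bind the IL-1 receptor on many cells, and IL-1 receptor antagonist (Il1rn) occupies the same receptor without signalling. TNF (Tnf) and IL-1 both activate the transcription factor NF-κB, which drives the genes of IL-6 (Il6), of the neutrophil-attracting chemokines Cxcl1, Cxcl2 and Cxcl3, and of A20 (Tnfaip3), an enzyme that edits ubiquitin chains and shuts NF-κB signalling down again. Ptgs2 encodes cyclooxygenase-2, the inducible enzyme that starts prostaglandin synthesis from arachidonic acid. In tumours these products come largely from neutrophils, monocytes and macrophages. Many of the transcripts are short-lived, as AU-rich elements of their 3′ untranslated regions recruit the decay factor tristetraprolin (Zfp36).

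The 10 genes lie on 5 chromosomes of GRCm38. Cxcl3 (chr5:90786103-90789600), Cxcl1 (chr5:90891241-90893115) and Cxcl2 (chr5:90903871-90905938) form a cluster on the plus strand, and Il6 (chr5:30013114-30019981, plus strand) lies elsewhere on the same chromosome. Il1a (chr2:129299610-129309972) and Il1b (chr2:129364570-129371139) are neighbours on the minus strand, apart from Il1rn (chr2:24336853-24351494, plus strand). Tnf is at chr17:35199381-35202007 and Tnfaip3 at chr10:19000910-19015657, both on the minus strand, and Ptgs2 is at chr1:150100031-150108227 on the plus strand. All are protein-coding genes.

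The upstream stretches of 5 genes are shown so that the letters shared by the 3 chemokine genes can be read beside those of Il6 and Ptgs2. Each is 120 bases of genomic sequence that end before both the RefSeq and the GENCODE start of the gene, on the plus strand of GRCm38.p6 and taken from RefSeq. Capitals mark GGGAATTTCC in the 3 chemokine genes (chr5:90891121-90891240, chr5:90903751-90903870 and chr5:90785981-90786100), a match to the NF-κB consensus in Il6 (chr5:30012994-30013113), and TTGCGCAA, a C/EBP palindrome, in Ptgs2 (chr1:150099911-150100030).
Cxcl1: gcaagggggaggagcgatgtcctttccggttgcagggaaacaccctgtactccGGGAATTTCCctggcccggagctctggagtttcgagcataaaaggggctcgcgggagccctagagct
Cxcl2: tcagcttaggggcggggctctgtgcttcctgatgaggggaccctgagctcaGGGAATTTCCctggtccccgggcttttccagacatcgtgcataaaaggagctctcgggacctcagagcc
Cxcl3: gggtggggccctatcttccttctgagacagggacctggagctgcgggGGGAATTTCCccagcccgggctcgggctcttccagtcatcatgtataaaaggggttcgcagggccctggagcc
Il6: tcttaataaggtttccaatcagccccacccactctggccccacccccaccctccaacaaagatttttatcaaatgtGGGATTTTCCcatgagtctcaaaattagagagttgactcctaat
Ptgs2: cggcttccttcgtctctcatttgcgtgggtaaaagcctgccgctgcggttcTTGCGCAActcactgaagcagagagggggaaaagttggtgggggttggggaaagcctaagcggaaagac

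The stretch GGGAATTTCC lay on the plus strand, 73 to 64 bases before the RefSeq start of Cxcl3. It lay 71 to 62 bases before that of Cxcl1 and 97 to 88 before that of Cxcl2. In Il6 another match to the NF-κB consensus, GGGATTTTCC, lay 44 to 35 bases before the start. GGGAATTTCC was present on either strand in 28 of 32851 promoters (0.0852%) over windows of 250 bases, 3 of them these chemokine genes. The NF-κB consensus, of which it is one form, matched in 7.25% of the promoters and in those of 5 members: Il6, Cxcl1, Cxcl2, Cxcl3 and Tnfaip3. TTGCGCAA was in 0.164% of promoters and, among the members, in Ptgs2 alone, 69 to 62 bases before its start. Over 30 bases around the shared stretch, Cxcl1 and Cxcl2 were 76.7% identical, Cxcl1 and Cxcl3 63.3%, and Cxcl2 and Cxcl3 56.7%. These 30 bases include the stretch itself, whose letters are the same in all 3 genes by choice, so the flanks alone were less alike. A match describes the letters of the window and is not a measured binding site.

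The AU-rich nonamer TTATTTATT was searched on the sense strand of each gene's longest annotated 3′ untranslated region. It occurred in 6 of the 10 members, against 7.61% of 20946 genes with such a region. Tnf held 5 copies, Cxcl2 held 4, Cxcl1 held 2, and Tnfaip3, Cxcl3 and Ptgs2 held 1 each, with none in Il1a, Il1b, Il1rn or Il6. The pentamer ATTTA, which the nonamer contains, occurred at least 3 times in 9 of the 10 members, against 35.5% of genes, with 14 copies in Ptgs2 and 0 in Il1rn, the 1 exception.

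The files held 7201 and 5429 barcodes in DKO 1 and 2 and 9206 and 8668 in control 1 and 2, with 57458026 to 80032966 UMIs (unique molecular identifiers, each counting one captured transcript) per library. After filtering, 6178 and 4647 DKO cells and 7638 and 7417 control cells were kept, and 53 to 76 barcodes per library also occurred in another library. The targeted genes could hardly be checked in a leukocyte sort. Aldh1a1 had 0 and 1 UMIs in DKO and 1 and 0 in control, and Aldh1a3 had 10 and 24 UMIs in DKO and 28 and 9 in control, with overlap. In the few tumour- or fibroblast-like cells Aldh1a3 had 0 and 0 UMIs in DKO, against 9 and 3 in control, and the 1 Aldh1a1 UMI of DKO 2 lay in these cells. Cells are named "like" a type from marker lists, none of which is one of the 10 genes. Monocyte/macrophage-like cells numbered 3110 and 2174 in DKO and 4498 and 4903 in control, dendritic-like cells 260 and 274 in DKO and 361 and 274 in control, and neutrophil-like cells 197 and 83 in DKO and 157 and 348 in control. Neutrophil-like cells carried the neutrophil markers S100a8, S100a9, Retnlg, G0s2 and Cxcr2 among their leading genes and were shallow, with a median of 1609 to 2093 UMIs, as against 8955 to 12993 in monocyte/macrophage-like cells. No correction for free RNA was made.

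Per transcript counted, neutrophil-like cells had a higher level than monocyte/macrophage-like cells of the same library for each member but Il6, with 1 exception, Cxcl1 in DKO 2 (ratio 0.822). Levels are in CPM, the UMIs of a gene per 1000000 UMIs of the class in that library. The Il1b level of neutrophil-like cells was 13.8 and 18.8 times that of monocyte/macrophage-like cells in DKO, and 18.1 and 13.5 times in control. For Cxcl2 the ratio was 28.3 and 18.4 in DKO and 23.8 and 19.5 in control, for Cxcl3 it was 69.9 and 42.2 in DKO and 45.2 and 36.2 in control, and for Ptgs2 it was 18.7 and 26.4 in DKO and 21.9 and 17.1 in control. The ratios of Il1b, Cxcl2, Cxcl3 and Ptgs2 overlapped between the groups. Clusters were built from these cells, so the order of classes is a description. Lower ratios were seen for Tnfaip3, at 6.50 and 5.80 in DKO and 7.67 and 6.32 in control, and for Il1rn, at 10.7 and 8.68 in DKO and 11.3 and 9.87 in control.

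The monocyte/macrophage-like cells, which were far more numerous, held most of the transcripts captured for each member but Tnfaip3. They carried on average 83.0% of the Il1b UMIs of a library, 87.2% of Il1rn, 83.2% of Cxcl2, 81.9% of Ptgs2 and 69.1% of Cxcl3, while neutrophil-like cells carried 9.70%, 6.74%, 13.98%, 12.4% and 24.4% of the same genes. Tnfaip3 had on average 49.7% of its UMIs in T-like cells and 32.8% in monocyte/macrophage-like cells. In control 2 the monocyte/macrophage-like cells held more of them, 4083 UMIs against 3884 in T-like cells. Of Tnf, which activated T cells also make, 21.6% of UMIs came from T-like cells. Of Cxcl1 the 28 to 62 tumour- or fibroblast-like cells per library held 39.5% and 35.4% of UMIs in DKO, against 11.9% and 9.26% in control.

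Il6 stood apart from the other 9 genes. Neutrophil-like cells had 0 Il6 UMIs in each of the 4 libraries, which allows up to 9.18 and 17.0 CPM in DKO and 11.4 and 4.65 CPM in control (3 counts per library, counting error alone). Monocyte/macrophage-like cells had 4.07 and 5.82 CPM in DKO and 4.09 and 3.71 CPM in control. Each limit lies above the level of the same library, so which class holds more Il6 is not resolved. Among the 15 myeloid states its highest means lay in classical monocyte-like cells (36.0 and 42.3 CPM in DKO, 37.5 and 18.8 in control) and mature dendritic-like cells (27.7 and 43.4 CPM in DKO, 24.2 and 34.8 in control). The Retnla myeloid-like state came next (11.2 and 35.5 CPM in DKO, 65.3 and 8.70 in control). The Il6 levels of these 3 states overlapped, so their order is not resolved.

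**Figure D1:**
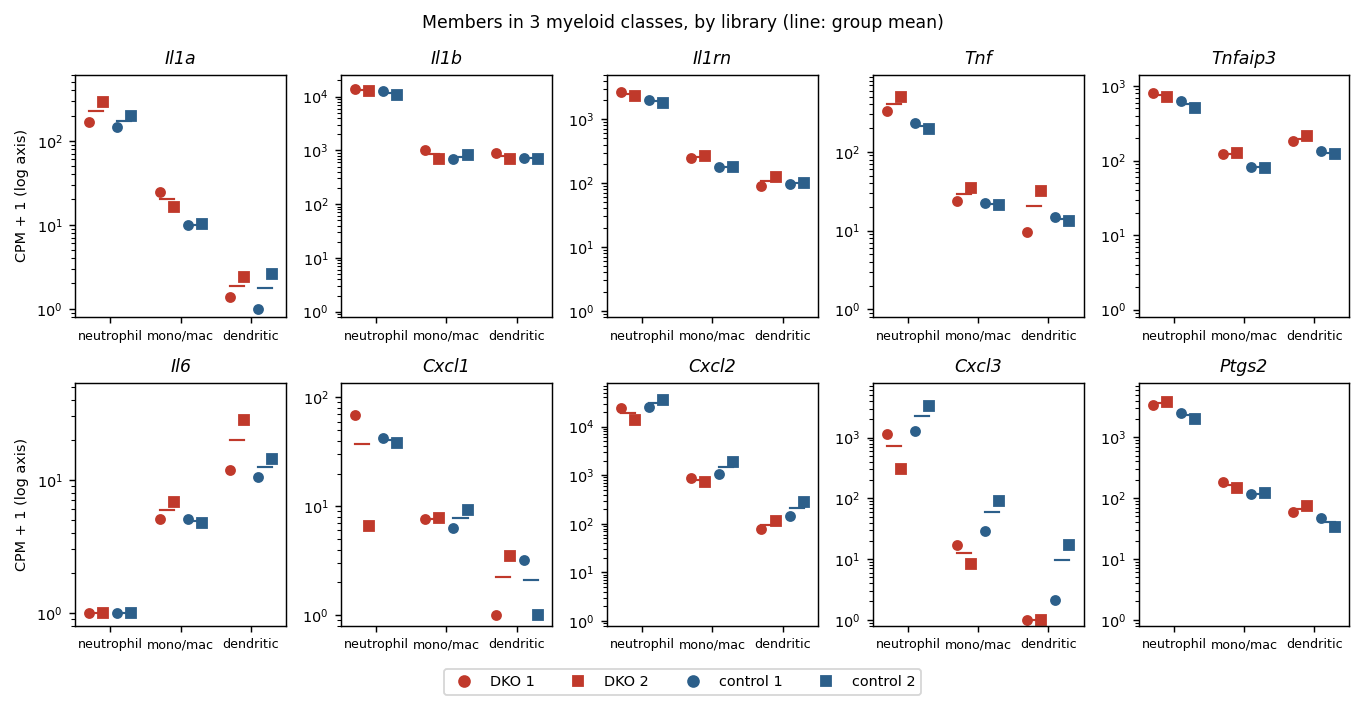
Level of each of the 10 genes, as CPM + 1 on a log axis, in neutrophil-like, monocyte/macrophage-like and dendritic-like cells; points are the 2 DKO libraries (red, left) and the 2 control libraries (blue, right), lines are group means. Cxcl2 and Cxcl3 lie lower in both DKO libraries in each of the 3 classes, and Tnfaip3 and Ptgs2 lie higher.

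The myeloid cells fell into 15 states when clustered with the 10 genes and the genes of the pathway lists left out. Neutrophil-like cells had the highest mean over the 4 libraries for each gene but Il6. Among the remaining states the second highest differed by gene. Il1b was next highest in classical monocyte-like cells, with 2976 and 1573 CPM in DKO and 1948 and 2101 CPM in control, and the values of the nonclassical monocyte-like state and of the state named for the interferon-induced chemokine Cxcl9 overlapped them. Cxcl2 and Cxcl3 were next highest in the hypoxic myeloid-like state, led by Mt2, Mmp12 and Gpnmb and with Cxcl3 itself among its 10 leading genes. Cxcl2 had 2420 and 2097 CPM there in DKO and 2508 and 2634 CPM in control, and the values of classical monocyte-like cells overlapped these and averaged higher in control. Ptgs2 and Il1rn were next highest in the Cxcl9 state, where Ptgs2 had 501 and 561 CPM in DKO and 363 and 223 CPM in control. The Ptgs2 and Il1rn values of classical monocyte-like cells overlapped those of the Cxcl9 state. Tnfaip3 was next highest in mature dendritic-like cells, with 189 and 310 CPM in DKO and 199 and 185 CPM in control, overlapping classical monocyte-like cells. Tnf was next highest in the Retnla myeloid-like state (39.3 and 51.3 CPM in DKO, 29.9 and 40.6 in control), overlapping the hypoxic state. Il1a was next highest in the Apol7c macrophage-like state (28.5 and 23.8 CPM in DKO, 15.3 and 14.7 in control), overlapping the Cxcl9 state.

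**Figure D2:**
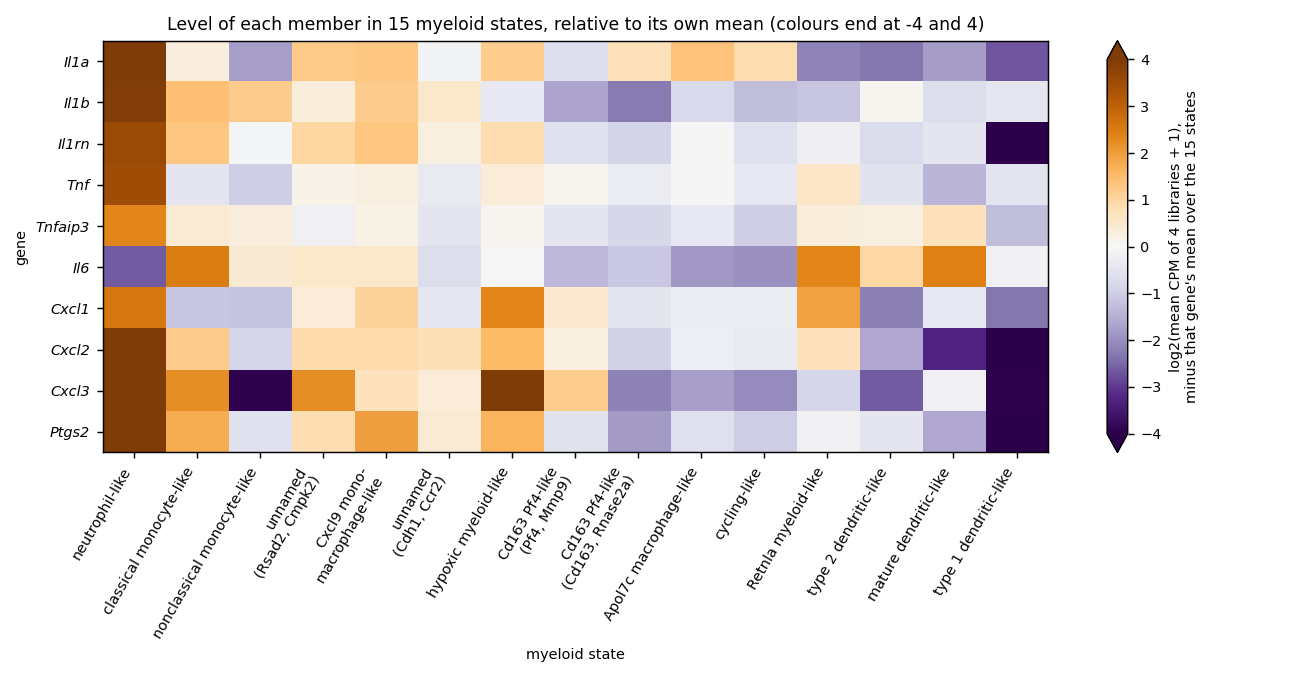
Level of each gene (vertical) in the 15 myeloid states (horizontal), as log2 of the mean CPM of the 4 libraries plus 1, minus that gene's own mean over the states, so colours compare states within a gene and not genes with each other. Neutrophil-like cells are the highest state for each gene but Il6, whose highest states are classical monocyte-like, mature dendritic-like and Retnla myeloid-like cells.

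Cxcl1 was next highest in the hypoxic state too, with 46.5 and 42.7 CPM in DKO and 23.9 and 12.9 CPM in control, and its neutrophil-like levels overlapped these.

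Across these 15 states the level of Ptgs2 ran closest to that of Il1rn. Pearson's r over log2(mean CPM + 1) was 0.963, the highest of 7955 genes for either one, as a description over states that share libraries and depth. Il13ra1, which encodes a receptor chain for IL-13, came next for Il1rn, and the glycolytic gene Hk1 for Ptgs2. The genes most like Tnfaip3 were Wac, Nfkbia, which encodes an NF-κB inhibitor, and Vps37b, at r of 0.950 to 0.955. Those most like Cxcl2 were Dmxl2, Ets2 and Grina at 0.951 to 0.957, and those most like Cxcl3 were Npepps, Gabarap and the hypoxia-induced Egln3 at 0.888 to 0.910. For Il1b they were Gm28192, Gsap and Smim3 (0.923 to 0.931), for Il1a Alkbh5, Nampt and Acod1 (each 0.891), and for Tnf Lasp1, Rab7 and 9130230L23Rik (0.932 to 0.958). For Il6 they were Arf5, Anxa7 and Crybg1 (0.863 to 0.892), and for Cxcl1 Mdm2, Ftl1-ps1 and Blcap (0.853 to 0.862).

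Between the groups, the monocyte/macrophage-like cells of DKO tumours held higher levels of Il1a, Il1rn, Tnf, Tnfaip3 and Ptgs2 and lower levels of Cxcl2 and Cxcl3 in both libraries, but none of the 10 passed edgeR's test over all genes in this class. With edgeR's quasi-likelihood test on counts summed per library and Benjamini-Hochberg adjustment, 0 of the 10 members were called in monocyte/macrophage-like cells, where 1 of 12984 genes was called (0.00770%), the DNase gene Dnase1l3. At an unadjusted p under 0.05 there were 6 members, against 8.47% of all genes. DESeq2 called 4 members (Il1a, Il1rn, Tnfaip3 and Cxcl2), against 1.28% of genes. The members' median log2 change was 0.34, against 0.01 over all genes tested. DKO lay above control without overlap for 5 members, against 21.5% of genes, and below it for 2, against 18.3%.

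The IL-1 ligands did not move together in monocyte/macrophage-like cells. Il1a had 23.3 and 15.5 CPM in DKO, against 8.89 and 9.08 CPM in control, so both DKO libraries lay above both control libraries (log2 1.08 ± 0.22 standard error, adjusted p = 0.372 by edgeR's quasi-likelihood test with Benjamini-Hochberg adjustment, 0.00574 by DESeq2). Il1b had 1003 and 679 CPM in DKO and 695 and 805 CPM in control. The Il1b groups overlapped, with DKO 1 the highest and DKO 2 the lowest library. The antagonist Il1rn had 247 and 267 CPM in DKO, against 179 and 181 CPM in control, without overlap (log2 0.48 ± 0.12, edgeR adjusted p = 0.413, DESeq2 adjusted p = 0.0411).

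Of the TNF and IL-6 arm, A20 differed most evenly between the groups. Tnfaip3 had 122 and 124 CPM in DKO, against 82.0 and 79.4 CPM in control (log2 0.57 ± 0.11, edgeR adjusted p = 0.349, DESeq2 adjusted p = 0.00517). The libraries of each group lay close together and the groups apart. Tnf itself had 22.5 and 33.2 CPM in DKO, against 21.4 and 20.3 CPM in control, with DKO 2 standing above the other 3 libraries, which were close together (log2 0.38 ± 0.17, edgeR adjusted p = 0.612). Il6 had 4.07 and 5.82 CPM in DKO and 4.09 and 3.71 CPM in control, from 176 to 206 UMIs per library, and the groups overlapped.

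The chemokine genes differed among themselves. Cxcl2 had 859 and 733 CPM in DKO, against 1080 and 1846 CPM in control, all of DKO below control (log2 -0.92 ± 0.30, edgeR adjusted p = 0.488, DESeq2 adjusted p = 0.0423). Cxcl3 had 16.2 and 7.24 CPM in DKO, against 28.2 and 90.4 CPM in control (log2 -2.37 ± 0.70, edgeR adjusted p = 0.483). Control 2 stood apart for both Cxcl2 and Cxcl3, and without it the log2 changes were -0.43 and -1.24. Cxcl1 had 6.56 and 6.88 CPM in DKO and 5.37 and 8.20 CPM in control, with overlap. Control 2 was also the library with the most neutrophil-like cells, 4.69% of its cells, against 3.19% and 1.79% in DKO 1 and 2 and 2.06% in control 1. Neutrophil transcripts summed over a list of 17 genes had 345 and 270 CPM in the monocyte/macrophage-like cells of DKO and 294 and 544 CPM in those of control, with Ly6g at or under 3 UMIs in each library. Of that list, 0 of 14 tested genes were called, 5 had an unadjusted p under 0.05, and the median log2 change was -0.61. Over all genes of this class, 8.47% had such a p and the median was 0.01. The part of neutrophil RNA in the Cxcl2 and Cxcl3 values was not tested.

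Ptgs2 had 184 and 144 CPM in DKO, against 117 and 119 CPM in control (log2 0.45 ± 0.16, edgeR adjusted p = 0.520). Both DKO libraries lay above both control libraries, DKO 1 by more.

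In T-like cells the levels of Il1b, Cxcl2, Cxcl3 and Ptgs2 were read beside the myeloid values. The part of free RNA in these T-like values was not tested. Cxcl2 had 47.5 and 43.3 CPM there in DKO and 34.7 and 95.5 CPM in control, and Cxcl3 had 2.49 and 3.57 CPM in DKO and 1.41 and 10.1 CPM in control. Control 2 was the highest library for both genes in T-like cells too. Il1b had 15.8 and 8.93 CPM in the T-like cells of DKO and 11.6 and 22.6 CPM in those of control, and Ptgs2 had 2.46 to 3.95 CPM over the 4 libraries.

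At equal depth per cell the groups were also compared. Of monocyte/macrophage-like cells thinned to 3000 UMIs, 53.6% (95% Clopper-Pearson interval 51.8 to 55.5) and 50.7% (48.5 to 52.8) had a Cxcl2 UMI in DKO, against 62.0% (60.5 to 63.4) and 72.5% (71.2 to 73.8) in control. The Cxcl2 share in T-like cells was 5.32% and 5.94% in DKO and 8.04% and 11.99% in control. For Tnfaip3 the monocyte/macrophage share was 30.5% (28.8 to 32.2) and 29.2% (27.2 to 31.2) in DKO, against 21.5% (20.3 to 22.8) and 20.5% (19.4 to 21.7) in control. For Il1rn it was 42.2% and 42.8% in DKO, against 33.5% and 33.9% in control. The Cxcl2, Tnfaip3 and Il1rn shares did not overlap between groups, whereas Ptgs2 did, at 28.4% and 20.1% in DKO and 18.3% and 21.1% in control. Shares of the other members are not given here, and those of all genes were not computed. On CPM, 21.5% of genes lay above and 18.3% below control without overlap in this class. The exact permutation test over 2 libraries against 2 cannot give a p below 0.333. Unthinned, the Cxcl2 shares were 68.6% and 66.1% in DKO and 74.7% and 83.2% in control, at a median of 11508 and 12993 UMIs per cell in DKO and 9737 and 8955 in control. The thinning left out 100 to 270 shallower cells per library.

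In neutrophil-like cells Il1rn, Tnf, Tnfaip3, Ptgs2 and, by a narrow gap, Il1b lay higher and Cxcl2 and Cxcl3 lower in both DKO libraries, from far fewer cells. Of 9 members tested (Il6 was not), 0 were called by edgeR's quasi-likelihood test with Benjamini-Hochberg adjustment, against 4 of 3505 genes (0.114%), namely Saa3, Fam162a, Nos2 and Tceal9, all lower in DKO. At an unadjusted p under 0.05 there were 3 members, against 9.30% of genes, and DESeq2 called 0 genes. DKO lay above control without overlap for 5 members, against 29.8% of genes, and below for 2, against 11.5%. The 5 include Il1b, whose groups overlapped in the neutrophil-like state of the second clustering. For Il1rn, Tnf, Tnfaip3, Ptgs2 and Il1b the log2 ratios of mean CPM were 0.39, 0.95, 0.42, 0.66 and 0.18. After TMM scaling they were 0.23, 0.77, 0.27, 0.50 and 0.02. The list of 17 neutrophil transcripts took 55743 and 82933 CPM in DKO and 67324 and 113160 CPM in control, with overlap. Its part in the CPM differences was not tested.

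Cxcl2, at 24339 and 13498 CPM in the neutrophil-like cells of DKO, against 25739 and 36044 CPM in those of control, was lower in both DKO libraries, DKO 1 and control 1 lying close together (log2 -0.88 ± 0.32, edgeR adjusted p = 0.419). Cxcl3 had 1135 and 305 CPM in DKO, against 1277 and 3274 CPM in control. DKO 1 and control 1 were close for Cxcl3 and the second libraries were far apart (log2 -1.83 ± 1.09, edgeR adjusted p = 0.733). Ptgs2 had 3432 and 3807 CPM in DKO, against 2550 and 2029 CPM in control (log2 0.50 ± 0.22, edgeR adjusted p = 0.491). Tnf had 327 and 492 CPM in DKO, against 231 and 194 CPM in control (log2 0.77 ± 0.27, edgeR adjusted p = 0.371). Neither Ptgs2 nor Tnf overlapped between groups in neutrophil-like cells. Il1b had 13818 and 12723 CPM in DKO, against 12610 and 10877 CPM in control, a non-overlapping but narrow gap (log2 0.02 ± 0.24 after TMM scaling). In the neutrophil-like state, with 156 instead of 157 control 1 cells, it had 13800 and 12723 CPM in DKO. The control values there were 12733 and 10877 CPM, with overlap. Il1rn had 2652 and 2319 CPM in DKO, against 2016 and 1784 CPM in control, and Tnfaip3 had 792 and 718 CPM in DKO, against 629 and 502 CPM in control. Both Il1rn and Tnfaip3 lay higher in DKO without passing the test (log2 0.23 ± 0.22 and 0.27 ± 0.24). Il1a, at 165 and 289 CPM in DKO and 144 and 197 in control, and Cxcl1, at 67.3 and 5.66 CPM in DKO and 41.7 and 37.2 in control, overlapped between the groups.

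Nearly every neutrophil-like cell carried Cxcl2 and Il1b. After thinning to 1000 UMIs, 97.1% and 94.5% had a Cxcl2 UMI in DKO and 96.1% and 99.0% in control, and 96.0% and 94.5% had an Il1b UMI in DKO and 96.1% and 91.3% in control. The Cxcl3 share was 27.0% (20.6 to 34.3) and 15.1% (7.77 to 25.4) in DKO and 28.7% (21.1 to 37.3) and 49.8% (44.1 to 55.5) in control. The Tnf share was 14.4% (9.52 to 20.5) and 26.0% (16.5 to 37.6) in DKO, against 10.9% (6.06 to 17.5) and 10.9% (7.69 to 14.9) in control, and the Il1a share 10.9% and 19.2% in DKO, against 10.1% and 10.6% in control. The group shares of Cxcl3, Tnf and Il1a did not overlap, though DKO 1 lay within the control 1 interval for each. Shares of all genes were not computed. On CPM, 29.8% of genes lay above and 11.5% below control without overlap in this class. A neutrophil-like cell carried on average 4.28 and 4.23 of the 10 members in DKO and 4.08 and 4.19 in control, and a monocyte/macrophage-like cell 1.48 and 1.26 in DKO and 1.21 and 1.45 in control, at this depth. The thinning left out 10 to 37 neutrophil-like cells per library.

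In dendritic-like cells 7 members could be tested, as Il1a, Cxcl1 and Cxcl3 were too low. By edgeR's quasi-likelihood test with Benjamini-Hochberg adjustment 0 of the 7 were called, against 1 of 9723 genes (0.0103%), the lysozyme gene Lyz2, which was lower in DKO. At an unadjusted p under 0.05 there were 3 members, against 8.53% of genes, and DESeq2 called 0 members (no adjusted p for Tnf and Il6) and 0.319% of genes. Tnfaip3 and Ptgs2 lay above control without overlap, against 26.8% of genes, and Cxcl2 lay below, against 14.3%. Tnfaip3 had 181 and 210 CPM in DKO, against 132 and 121 CPM in control (log2 0.56 ± 0.13, edgeR adjusted p = 0.364). Ptgs2 had 58.4 and 72.4 CPM in DKO, against 46.8 and 32.8 CPM in control (log2 0.63 ± 0.18, edgeR adjusted p = 0.473). Cxcl2 had 78.9 and 112 CPM in DKO, against 143 and 286 CPM in control (log2 -1.23 ± 0.36, edgeR adjusted p = 0.506). T-like cells had 34.7 to 95.5 CPM of Cxcl2. Cxcl3 had 0 and 0 UMIs in DKO and 4 and 41 in control, and the part of free RNA in this was not tested. Il1b (903 and 694 CPM in DKO, 730 and 681 in control), Il1rn (90.1 and 123 CPM in DKO, 96.2 and 101 in control), Tnf (8.60 and 30.7 CPM in DKO, 13.7 and 12.1 in control) and Il6 (10.8 and 27.1 CPM in DKO, 9.59 and 13.3 in control) overlapped. DKO 2 was the highest library for Il1rn, Tnf and Il6.

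Whether the DKO difference itself differed between classes was tested with a class-by-group term and the library as block. Neutrophil-like against monocyte/macrophage-like cells gave 0 members past the threshold and 0.256% of genes by edgeR's quasi-likelihood test with Benjamini-Hochberg adjustment, and dendritic-like against monocyte/macrophage-like cells gave 0 members and 0.277% of genes. The smallest adjusted p in the first comparison was that of Il1a, whose log2 change was lower in neutrophil-like than in monocyte/macrophage-like cells (difference -0.998 ± 0.33, edgeR adjusted p = 0.308). In the second it was that of Il1rn (-0.43 ± 0.14, edgeR adjusted p = 0.349). For Cxcl2 the difference of the changes was -0.11 ± 0.20 in neutrophil-like and -0.27 ± 0.19 in dendritic-like cells.

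Over all CD45+ cells together, 0 of 10 members and 0 of 14412 genes (0%) were called by edgeR's quasi-likelihood test with Benjamini-Hochberg adjustment. At an unadjusted p under 0.05 there were 5 members, against 12.9% of genes, and DESeq2 called 1 member, Tnfaip3, and 3.25% of genes. The log2 change of Tnfaip3 was 0.74 ± 0.12 (edgeR adjusted p = 0.139, DESeq2 adjusted p = 2.46e-06). The makeup of the sort differed as well, with T-like cells at 30.4% and 29.3% of cells in DKO and 20.3% and 15.2% in control. The part of this in the Tnfaip3 change was not tested. Within T-like cells Tnfaip3 had 854 and 846 CPM in DKO, against 688 and 614 CPM in control, also without overlap, and was not tested there.

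Single states gave the calls that the whole classes did not. In 12 of the 15 states each library had at least 50 cells, and 106 pairs of a member and a state could be tested. By edgeR's quasi-likelihood test with Benjamini-Hochberg adjustment within a state, 8 pairs (7.55%) passed the threshold of 0.05, against 0.142% of all gene and state pairs. They lay in 4 states and concerned 6 members, with 6 higher and 2 lower in DKO. With the adjustment run over all 12 states together 3 passed, Il1b and Il1a in cycling cells and Cxcl3 in the hypoxic state. In the 8 states with no member called the share of genes called was also low. It was 0% in the Cd163 Pf4 macrophage-like state led by Pf4 and Mmp9, 0.0889% in the one led by Cd163 and Rnase2a, 0.00968% in the Cxcl9 state and 0.121% in the Apol7c state. It was 0.183% in the unnamed state led by Rsad2 and Cmpk2, 0.118% in neutrophil-like, 0.0223% in type 2 dendritic-like and 0.119% in mature dendritic-like cells.

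In the cycling-like state, marked by Top2a, Mki67 and Birc5, both IL-1 genes rose. Il1b had 440 and 471 CPM in DKO, against 210 and 220 CPM in control (log2 1.05 ± 0.14, edgeR adjusted p = 0.0210), where 0.311% of genes were called. Il1a had 21.7 and 20.9 CPM in DKO, against 8.57 and 6.59 CPM in control (log2 1.43 ± 0.20, edgeR adjusted p = 0.0218). Libraries of a group lay close together and the groups were far apart for both. Ptgs2 rose as well, with 67.4 and 64.4 CPM in DKO, against 38.0 and 37.8 CPM in control (log2 0.78 ± 0.13, edgeR adjusted p = 0.0478). The 3 calls were lost when either DKO library was left out, with edgeR adjusted p between 0.0910 and 0.290 but log2 changes from 0.71 to 1.48. Genes of dissociation stress, a list of 25 early response and heat shock genes, summed to 11841 and 13531 CPM in the cycling cells of DKO and 11926 and 12988 CPM in those of control, and neutrophil transcripts to 166 and 129 CPM in DKO and 120 and 218 CPM in control, both with overlap.

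In classical monocyte-like cells, the state marked by Ly6c2, Plac8 and Vcan, Cxcl2 fell and Tnfaip3 rose. Cd177, a gene of the neutrophil list, was also among the 10 leading genes of the state. In the first clustering, a cluster led by Hp and Ifitm6, with Vcan, Plac8 and Cd177, scored highest for neutrophil markers. It was named monocyte/macrophage-like from its leading genes. Cxcl2 had 982 and 745 CPM in DKO, against 2268 and 3647 CPM in control (log2 -1.83 ± 0.26, edgeR adjusted p = 0.0376), where 0.316% of genes were called. Tnfaip3 had 236 and 248 CPM in DKO, against 135 and 85.2 CPM in control (log2 1.10 ± 0.21, edgeR adjusted p = 0.0376). Neither gene overlapped between groups. Without control 2 the log2 changes were -1.43 and 0.80 and neither was called (edgeR adjusted p = 0.147 and 0.994), and without DKO 2 Cxcl2 was at an edgeR adjusted p of 0.0834. Il1rn, at 621 and 565 CPM in DKO and 367 and 280 CPM in control, was just outside the threshold (log2 0.83 ± 0.18, edgeR adjusted p = 0.0692). Dissociation stress genes summed to 17864 and 23114 CPM in these DKO cells and 15974 and 13193 CPM in the control cells, and neutrophil transcripts to 835 and 716 CPM in DKO and 1051 and 1361 CPM in control, neither with overlap. T and NK cell transcripts summed to 125 and 120 CPM in these DKO cells and 64.8 and 51.3 CPM in the control cells, also without overlap. The part of any of these lists in the Cxcl2 and Tnfaip3 changes was not tested.

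In the hypoxic myeloid-like state Cxcl3 fell, with 219 and 135 CPM in DKO, against 438 and 506 CPM in control (log2 -1.43 ± 0.22, edgeR adjusted p = 0.0250), where 0.150% of genes were called. The edgeR adjusted p was 0.0786 with the replicate number as block. Cxcl2 in the same cells had 2420 and 2097 CPM in DKO, against 2508 and 2634 CPM in control, a narrow gap (log2 -0.21 ± 0.17). Cxcl1 lay the other way, at 46.5 and 42.7 CPM in DKO, against 23.9 and 12.9 CPM in control (log2 1.36 ± 0.30, edgeR adjusted p = 0.136). Neutrophil transcripts in it overlapped, at 1020 and 545 CPM in DKO and 640 and 893 CPM in control, whereas dissociation stress genes did not, at 17725 and 20639 CPM in DKO and 16339 and 14989 CPM in control.

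In the state led by Cdh1 and Ccr2, which the marker lists did not name, Tnfaip3 and Ptgs2 rose. Tnfaip3 had 119 and 119 CPM in DKO, against 71.8 and 63.6 CPM in control (log2 0.78 ± 0.14, edgeR adjusted p = 0.0447), where 0.266% of genes were called. Ptgs2 had 202 and 171 CPM in DKO, against 107 and 94.6 CPM in control (log2 0.86 ± 0.16, edgeR adjusted p = 0.0499). Both gaps exceeded the spread within the groups. Without control 2 neither was called (edgeR adjusted p = 0.209 and 0.156), and without control 1 Tnfaip3 was at an edgeR adjusted p of 0.0505. Dissociation stress genes summed to 16329 and 20205 CPM in DKO and 14803 and 15025 CPM in control, without overlap. T and NK cell transcripts summed to 69.6 and 64.4 CPM in DKO and 39.1 and 49.5 CPM in control, also without overlap. The part of either list in the Tnfaip3 and Ptgs2 changes was not tested.

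**Figure D3:**
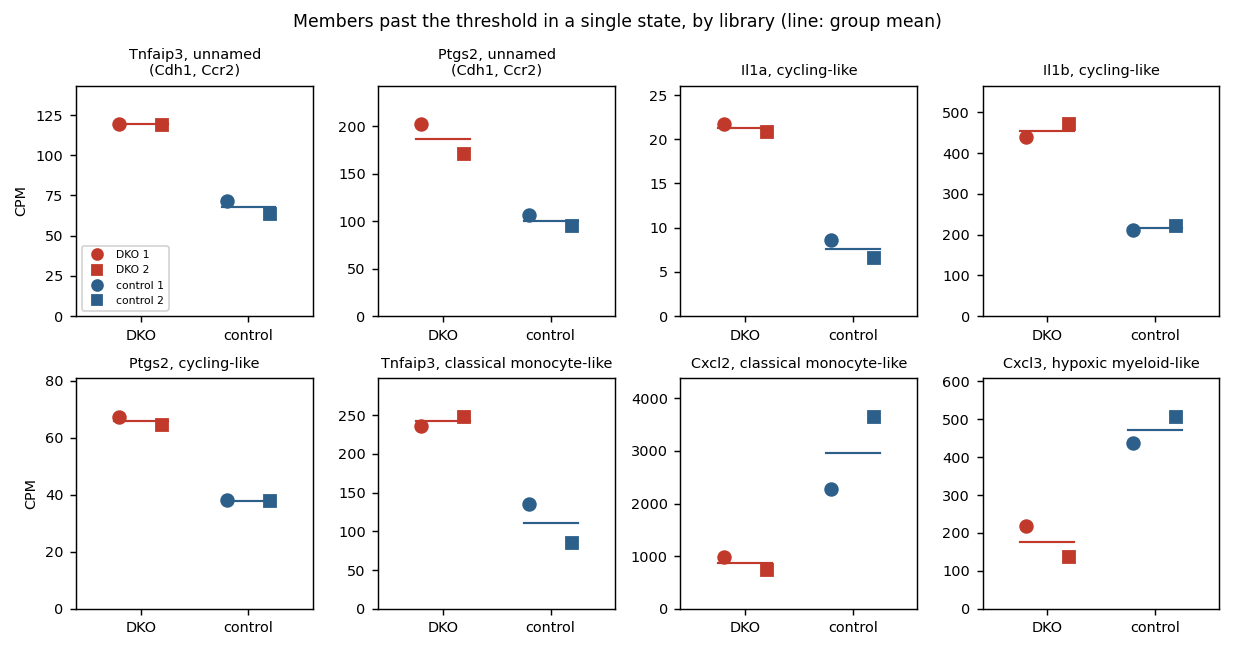
CPM of the 8 member and state pairs with an adjusted p under 0.05 (edgeR), 1 panel each, with the 2 DKO libraries in red on the left, the 2 control libraries in blue on the right, and lines at the group means. The groups do not overlap in any panel, and Cxcl2 in classical monocyte-like cells and Cxcl3 in hypoxic cells are the panels in which DKO is lower.

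Across the 9 tested monocyte and macrophage states the direction was steadiest for 3 genes. Il1rn and Tnfaip3 lay above control without overlap in 9 of 9 states, as did 58 of the 7395 genes tested in all of them, and 3.94% of genes lay above in 7 or more. Cxcl2 lay below control in 9 of 9, as did 37 of the 7395 genes. The states share their libraries and are not independent. Cxcl3 lay below control without overlap in 7 of the 9, as 2.88% of genes did in 7 or more, and had the lower DKO mean in each of the 9. Ptgs2 lay above in 6, as 6.87% of genes did in 6 or more. Tnf lay above in 5, as 11.7% did in 5 or more, and Il1a and Il1b in 4 each, as 19.9% did in 4 or more. Il6 and Cxcl1 were too low to be tested in some of the 9 states and are not counted here. The median log2 ratio of group means over the states was -0.53 for Cxcl2, with a range of -1.78 in classical monocyte-like cells to -0.19 in the hypoxic state. It was 0.64 for Tnfaip3 (0.34 to 1.13), 0.69 for Il1rn (0.11 to 0.92), 0.73 for Ptgs2 (-0.04 to 0.89) and 0.35 for Il1b (0.11 to 1.08).

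**Figure D4:**
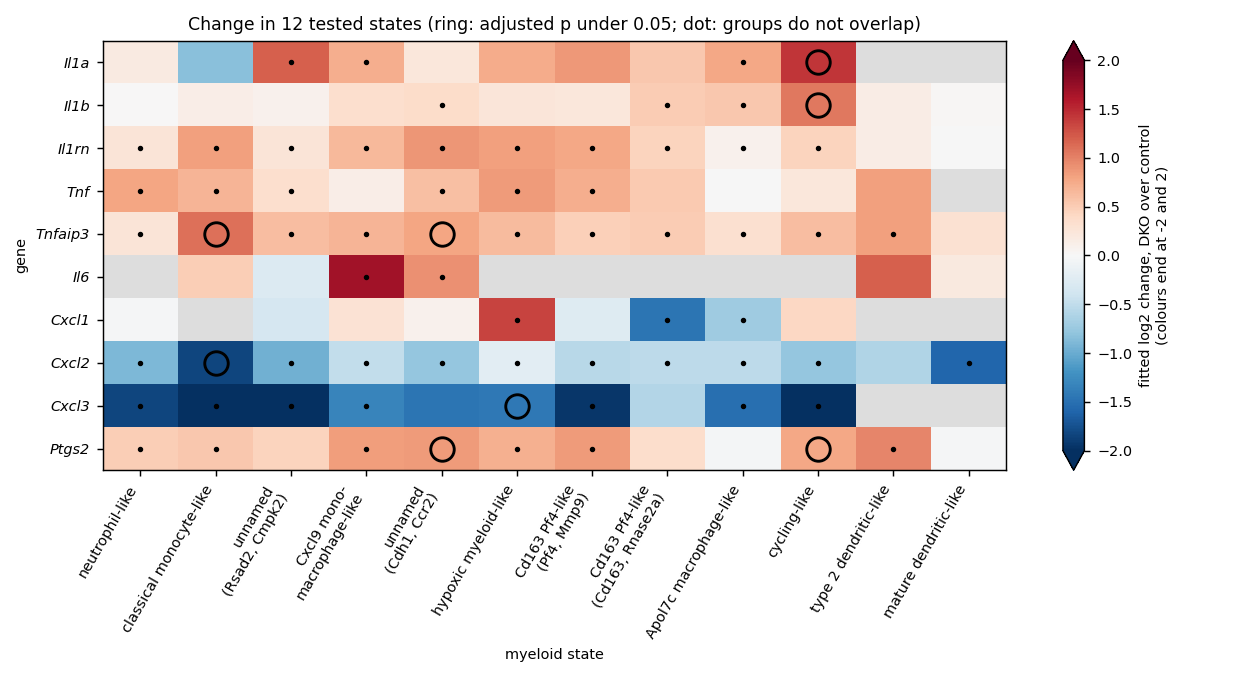
Fitted log2 change, DKO over control, of each gene (vertical) in the 12 tested states (horizontal); rings mark an adjusted p under 0.05 (edgeR), dots mark groups that do not overlap, grey marks pairs too low to test. The Il1rn and Tnfaip3 bands are above 0 and the Cxcl2 and Cxcl3 bands below 0 in each monocyte or macrophage state, while Cxcl1 is split.

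The mix of states differed between the groups. The Apol7c macrophage-like state made up 20.6% and 24.9% of the monocyte/macrophage states in DKO, against 6.70% and 2.34% in control, and the Cd163 Pf4 macrophage-like state led by Pf4 and Mmp9 made up 6.70% and 4.19% in DKO, against 12.995% and 29.5% in control. To hold the mix fixed, the level of each gene was averaged over the states with 1 fixed set of weights. At that equal mix the log2 ratio was 0.67 for Tnfaip3 (0.61 as mixed), 0.64 for Il1rn (0.52 as mixed), 0.71 for Ptgs2 (0.48 as mixed) and 0.46 for Tnf (0.42 as mixed). It was -0.71 for Cxcl2 (-0.88 as mixed) and -1.92 for Cxcl3 (-2.34 as mixed). Directions were the same at the fixed mix for these 6 genes, with the chemokine differences somewhat smaller and those of Ptgs2 and Il1rn larger. Il1a was at 0.71, against 1.11 as mixed. Il1b was at 0.34, against 0.16 as mixed, with overlap between the groups. Il6 was at 0.62, without overlap, against 0.34 as mixed, and Cxcl1 at 0.17, with overlap, against -0.01 as mixed. At the fixed mix DKO lay above control without overlap for 6 members, against 22.7% of the genes tested in this class, and below it for 2, against 19.2%. For each of these 8 genes the exact permutation p was 0.333, the smallest possible. With the same weight for every state the Il6 groups overlapped.

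Genes upstream and downstream of the 10 members were read from 6 pathway lists in monocyte/macrophage-like cells, and edgeR's quasi-likelihood test with Benjamini-Hochberg adjustment called 0 in each. Over all genes tested in this class, 8.47% had an unadjusted p under 0.05 and the median log2 change was 0.01. Of IL-1 receptor and inflammasome genes 20 were tested, with a median log2 change of 0.11 and 2 at an unadjusted p under 0.05. Among them Pycard, the inflammasome adaptor, had 275 and 199 CPM in DKO, against 282 and 365 CPM in control, without overlap but with DKO 1 close to control 1 (log2 -0.49 ± 0.23, edgeR adjusted p = 0.622). The sensor Nlrp3 had 140 and 111 CPM in DKO and 111 and 119 CPM in control, with overlap. Of 16 TNF receptor and adaptor genes 1 had an unadjusted p under 0.05 (median 0.04). Tnfrsf1a, the main TNF receptor, had 136 and 129 CPM in DKO and 130 and 144 CPM in control.

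Of 23 genes of NF-κB subunits, inhibitors and feedback, 8 had an unadjusted p under 0.05, against 8.47% of all genes. The median log2 change was 0.07, and 14 of the 23 changes were positive. Zfp36, whose protein clears AU-rich transcripts, had 684 and 949 CPM in DKO, against 613 and 503 CPM in control (log2 0.51 ± 0.19, edgeR adjusted p = 0.530). Nfkbia had 252 and 252 CPM in DKO and 240 and 321 CPM in control, with overlap, and so did Dusp1 and Ier3. Among 8 tested genes of IL-6 receptors and STAT3, 0 had an unadjusted p under 0.05 (median 0.03), with Stat3 at 177 and 184 CPM in DKO and 154 and 147 CPM in control.

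Of the CXCR2 axis 5 genes were tested (median 0.12, 1 at an unadjusted p under 0.05). Ppbp, the gene of another CXCR2 ligand, had 2.86 and 0.724 CPM in DKO, against 9.56 and 21.3 CPM in control (log2 -3.10 ± 0.71, edgeR adjusted p = 0.414), lower in DKO like Cxcl3. Of 18 prostaglandin and leukotriene genes 4 had an unadjusted p under 0.05 (median -0.01). Alox5ap, which supplies arachidonic acid to the leukotriene pathway, had 305 and 287 CPM in DKO, against 427 and 534 CPM in control (log2 -0.74 ± 0.18, edgeR adjusted p = 0.401). Ptgs1, the constitutive counterpart of Ptgs2, had 140 and 152 CPM in DKO and 129 and 65.6 CPM in control, without overlap (log2 0.57 ± 0.29, edgeR adjusted p = 0.647).

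Dissociation stress genes, a list that shares Zfp36, Dusp1 and Socs3 with the pathway lists, were read beside the members. Their sum in monocyte/macrophage-like cells was 13882 and 16914 CPM in DKO and 14033 and 14244 CPM in control, with overlap. Of the 25, 0 were called and 4 had an unadjusted p under 0.05, against 8.47% of genes (median log2 0.14). In neutrophil-like cells the sum was 34245 and 33202 CPM in DKO, against 32006 and 25688 CPM in control, and in dendritic-like cells 12992 and 15029 CPM in DKO, against 12393 and 12440 CPM in control, both without overlap. In dendritic-like cells 9 of the 25 had an unadjusted p under 0.05, against 8.53% of genes, and the median log2 change was 0.28. In neutrophil-like cells 6 of 23 tested had one, against 9.30% of genes. The median there was -0.06, opposite in direction to the sum. The part of handling in the member changes was not tested. T and NK cell transcripts summed to 80.3 and 76.9 CPM in the monocyte/macrophage-like cells of DKO and 55.7 and 61.7 CPM in those of control, without overlap. Their part in the Tnfaip3 values was not tested.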

How the data were processed

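Live CD45+ cells of 2 DKO and 2 control pools were sequenced on the 10x Genomics 3′ v3 platform after an enzymatic digest at 37 °C, per the labels' protocols. The authors deposited raw UMI counts per gene and cell barcode, with no normalization. Per the submitters' processing notes the tools were Cell Ranger, R 3.6.0 and Seurat 3.1.0. Those notes name mm10 and GRCh38 without a role. The feature identifiers matched GENCODE vM21 (GRCm38) for 30934 of 31053 (99.6%). Strand use, intronic counting and whether pools share a day or litter are not given in the sources used here, nor are the guides and clones of the tumour line.

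Barcodes with under 200 genes, under 500 UMIs or over 10% mitochondrial UMIs were removed (636 and 570 in DKO, 930 and 663 in control). Scrublet's highest scores, at 0.8% per 1000 barcodes, were then removed as doublets (415 and 236 in DKO, 678 and 601 in control), which left 4647 to 7638 cells per library. Leiden clustering (scanpy 1.11.5, leidenalg 0.10.2, Python 3.11.15; 2000 variable genes without the members and pathway lists, 30 components, 20 neighbours, resolution 1) gave 26 clusters, named from marker lists, and the myeloid cells were clustered again into 15 states. A 3′ count gives no order of levels between genes, as capture differs by gene.

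Counts were summed per library and class, or per state with at least 50 cells in every library, and compared with edgeR 4.0.16 in R 4.3.3 (TMM, filterByExpr, robust quasi-likelihood fit, Benjamini-Hochberg over all genes tested, threshold 0.05). DESeq2 1.42.0 was an alternative, as were its size factors, no filter on low counts, no doublet removal, a stricter cell filter (500 genes, 1000 UMIs, 5% mitochondrial), other resolutions, a replicate block and leaving out each library. The tests were checked on simulated counts. Shares of cells used cells thinned to 3000 UMIs (1000 for neutrophil-like cells), with 95% Clopper-Pearson intervals, and a count of 0 was given a limit of 3 counts. Intervals and limits cover counting error alone.

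All 10 members are given in monocyte/macrophage-like and neutrophil-like cells, and the tested ones in dendritic-like cells. Over all CD45+ cells the main fit is given for Tnfaip3 alone. In single states each member is given where its mean CPM over the 4 libraries was highest, and each with an adjusted p under 0.05. Other values from states, such as those of the next highest state and of genes just outside the threshold, were chosen after their values were seen. From each pathway list the text names called genes and at most the 4 tested genes with the largest mean CPM in monocyte/macrophage-like cells. Genes of like pattern are the 3 with the highest Pearson's r among genes of at least 20 CPM in a state. The members and all lists were chosen with earlier results of these data known.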

Additional observations from a re-analysis of the deposited data

Results flagged for a closer look

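Some cells outside the tested comparisons held some of the 10 genes at levels that did not overlap between the groups. They have no test, since libraries held under 50 of these cells or the cells belonged to none of the compared classes, and log2 ratios below are of group means. The entries are listed for their lack of overlap, and the share over all genes was not computed in these cells. In the tested myeloid classes 21.5% to 29.8% of genes lay above control without overlap and 11.5% to 18.3% below.

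Mast- or basophil-like cells numbered 13 and 57 in DKO and 13 and 7 in control, with a median of 714 UMIs. When doublets were kept, the cluster led by mast cell genes (Mcpt2, Mcpt4, Cma1) held 3 and 14 DKO cells and 17 and 3 control cells, and a separate cluster led by Retnlg, Ccr3 and Alox15 held 11 and 54 DKO cells and 0 and 5 control cells. The values below may therefore set unlike cells side by side. Il1rn had 221 and 1251 CPM there in DKO, against 25.6 and 68.7 CPM in control (log2 ratio 3.96, from 13 and 86 UMIs in DKO and 3 and 2 in control). DKO 2 supplied most of the Il1rn UMIs. Il6 had 153 and 175 CPM in DKO, against 42.6 and 34.3 CPM in control (log2 ratio 2.09), from 9 and 12 UMIs in DKO and 5 and 1 in control. Tnfaip3 had 681 and 276 CPM in DKO, against 247 and 172 CPM in control (log2 ratio 1.19). The mean Il6 level of these few cells over the 4 libraries, 101 CPM, lay above that of every myeloid state.

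Tumour- or fibroblast-like cells in the CD45+ sort numbered 31 and 28 in DKO and 60 and 62 in control. Cxcl1 had 193 and 136 CPM there in DKO, against 20.7 and 47.1 CPM in control (log2 ratio 2.28, from 205 and 131 UMIs in DKO and 40 and 46 in control). The Cxcl1 difference rests on few cells.

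Unnamed cells of low UMI content numbered 263 and 267 in DKO and 589 and 290 in control. Il1rn had 356 and 311 CPM there in DKO, against 196 and 215 CPM in control (log2 ratio 0.70). Ptgs2 had 296 and 149 CPM in DKO, against 103 and 109 CPM in control (log2 ratio 1.07). Tnfaip3 had 130 and 119 CPM in DKO, against 85.1 and 69.8 CPM in control (log2 ratio 0.69). Tnf had 18.6 and 26.4 CPM in DKO, against 18.4 and 3.88 CPM in control (log2 ratio 1.02), from 8 and 20 UMIs in DKO and 19 and 2 in control.

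Tnfaip3 was also higher in both DKO libraries in 4 kinds of cell too few to test, against 21.5% to 29.8% of genes in any one tested myeloid class. These kinds share their libraries and are not independent. It had 209 and 185 CPM in the nonclassical monocyte-like cells of DKO, against 136 and 125 CPM in those of control (log2 ratio 0.59). In the Retnla myeloid-like state it had 208 and 206 CPM in DKO, against 131 and 125 CPM in control (log2 ratio 0.70). In type 1 dendritic-like cells it had 58.3 and 88.1 CPM in DKO, against 44.2 and 28.1 CPM in control (log2 ratio 1.02), and in plasmacytoid dendritic-like cells 81.5 and 118 CPM in DKO, against 61.9 and 67.6 CPM in control (log2 ratio 0.62). Il1rn in nonclassical monocyte-like cells had 230 and 195 CPM in DKO, against 149 and 137 CPM in control (log2 ratio 0.57).

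Cxcl2 lay below control without overlap in the same 4 kinds of cell, against 11.5% to 18.3% of genes in any one tested myeloid class. It had 185 and 185 CPM in the nonclassical monocyte-like cells of DKO, against 542 and 922 CPM in those of control (log2 ratio -1.99). In the Retnla state it had 657 and 1173 CPM in DKO, against 1767 and 1778 CPM in control (log2 ratio -0.95). Its log2 ratio was -3.91 in type 1 dendritic-like cells (1 and 7 UMIs in DKO, 8 and 23 in control) and -0.83 in plasmacytoid dendritic-like cells (2 and 12 UMIs in DKO, 13 and 6 in control). Mean Cxcl2 over the 4 libraries was 48.9 CPM in type 1 and 37.2 CPM in plasmacytoid dendritic-like cells. Both means lay under that of T-like cells, 55.2 CPM, and the part of free RNA in them was not tested. Il1b in plasmacytoid dendritic-like cells had 1 and 3 UMIs in DKO and 15 and 36 in control (log2 ratio -4.23).

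Cxcl1 went opposite ways in different states without overlap between the groups. Its log2 ratio was 1.28 in the hypoxic myeloid-like state, -0.66 in the Apol7c macrophage-like state and -1.53 in the Cd163 Pf4 macrophage-like state led by Cd163 and Rnase2a. In the last of these it had 2.73 and 1.03 CPM in DKO, against 4.24 and 6.65 CPM in control, from 10 and 5 UMIs in DKO and 35 and 14 in control. The difference between the states was not tested.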

How the results depend on the processing

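Of 360 log2 changes of members in the 4 sets of cells under alternatives, 335 kept their direction and 25 reversed. Those of Tnfaip3, Tnf outside dendritic-like cells, Cxcl2 and Cxcl3 kept it under every alternative run. The numbers of calls did not hold in the same way, and the cause was not tested.

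Genes called by edgeR numbered 0 over all CD45+ cells, 1 in monocyte/macrophage-like, 1 in dendritic-like and 4 in neutrophil-like cells. In the same order, DESeq2 called 423, 147, 16 and 0, and edgeR without the filter on low counts 78, 35, 166 and 43. The stricter cell filter gave 0 in monocyte/macrophage-like, 3 in dendritic-like and 2 in neutrophil-like cells, keeping doublets gave 0 in dendritic-like cells, and DESeq2's size factors gave 1 in neutrophil-like cells. Leaving out 1 library at a time gave 0 to 248, 0 to 129, 0 to 588 and 2 to 78.

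Members called numbered 1 over all CD45+ cells and 4 in monocyte/macrophage-like cells with DESeq2, and 3 in dendritic-like cells without the filter on low counts. Leaving out 1 library gave 0 to 1 over all cells, 0 to 1 in monocyte/macrophage-like, 0 to 4 in dendritic-like and 0 to 1 in neutrophil-like cells. Without control 1, Cxcl2 passed edgeR's test over all cells (log2 -1.64, adjusted p = 0.0310), in monocyte/macrophage-like cells (-1.29, adjusted p = 0.0447) and in neutrophil-like cells (-1.20, adjusted p = 0.0276). Without DKO 1, Tnf (1.11), Tnfaip3 (0.60), Il6 (1.14) and Ptgs2 (0.71) passed in dendritic-like cells, at edgeR adjusted p of 0.00259 to 0.00481. A group with 1 library left is assumed to vary like the other. The count of 8 member and state pairs called was 31 without the filter on low counts and 15 with the replicate block. It was 3 when adjusted over the genes of all states together, an alternative chosen after seeing the data. It was 30 without DKO 1, 25 without DKO 2, 23 without control 1 and 7 without control 2. Ptgs2 in the cycling-like state stood at an edgeR adjusted p of 0.0502 with DESeq2's size factors. Members whose change differed between classes numbered 0, 1 without the filter on low counts for dendritic-like cells, and 0 to 1 for either class without 1 library.

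Same-numbered libraries did not deviate together (r of their deviations -0.46 over all cells, -0.39 in monocyte/macrophage-like, -0.33 in dendritic-like and -0.08 in neutrophil-like cells), so they were not treated as pairs. With 2 libraries a group, a negative r also means that opposite-numbered libraries deviated in the same direction. What they share is not known from the labels. With the replicate block the genes called were 3 in monocyte/macrophage-like, 0 in dendritic-like and 9 in neutrophil-like cells. With the numbers crossed, a pairing chosen after seeing the data, they were 515, 51, 269 and 93 in the order above. Members were not read from the crossed fit.

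Without 1 library, the log2 change over all CD45+ cells lay between -0.50 and 0.20 for Il1b, -0.12 and 0.63 for Il6, -0.10 and 0.63 for Cxcl1 and -0.070 and 0.45 for Ptgs2. In monocyte/macrophage-like cells it lay between -0.21 and 0.41 for Il1b and -0.36 and 0.33 for Cxcl1, which was also at 0.11 without doublet removal and 0.16 with the stricter filter. In dendritic-like cells it lay between -0.15 and 0.35 for Il1b, -0.14 and 0.19 for Il1rn, -0.60 and 1.11 for Tnf and -0.060 and 1.14 for Il6, and Il1rn was at -0.036 with the stricter filter. In neutrophil-like cells it lay between -0.24 and 0.53 for Il1a, -0.10 and 0.10 for Il1b and -2.94 and 0.62 for Cxcl1. There Il1a was at -0.22 with the stricter filter, and Il1b at -0.061 without doublet removal, -0.059 without the filter on low counts and -0.0020 with the stricter filter. Levels at an equal mix of states kept their direction in each alternative run for them, and with the same weight for every state the groups overlapped for Il6 as well.

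Limits on precision are 2 pools a group, 83 to 348 neutrophil-like cells a library and free RNA that was not removed.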

Other observations

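In the type 2 dendritic-like state, Tnfaip3 and Ptgs2 lay just outside the threshold. Tnfaip3 had 188 and 222 CPM there in DKO, against 115 and 107 CPM in control (log2 0.82, adjusted p = 0.0668 by edgeR's quasi-likelihood test with Benjamini-Hochberg adjustment). Ptgs2 had 92.5 and 111 CPM in DKO, against 51.9 and 46.8 CPM in control (log2 0.98, edgeR adjusted p = 0.0668). Neither gene overlapped between the groups, and neither passed the test. The IL-6 gene in these cells had 7.03 and 23.8 CPM in DKO and 7.30 and 5.78 CPM in control, so DKO 2 stood alone.

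In the Cxcl9 monocyte-macrophage-like state Il6 had 9.39 and 15.2 CPM in DKO, against 4.83 and 2.61 CPM in control (log2 1.67, edgeR adjusted p = 0.138). Both DKO libraries lay above both control libraries at these low levels.

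Over the 15 myeloid states some members ran together more than others. Pearson's r over log2(mean CPM + 1) was 0.930 for Cxcl2 and Ptgs2, 0.884 for Il1rn and Cxcl2 and 0.812 for Cxcl2 and Cxcl3. Il6 ran with none of them, with r from -0.59 (Il1a) to 0.14 (Tnfaip3). The states share libraries and depth, so these values describe the 15 states.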
